A study of Mus musculus with 18 samples.

Results

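The comparison described here sets the hippocampus of mice without the taste receptor subunit T1R3 (gene Tas1r3) against the hippocampus of wild-type mice. It uses 6 of the 18 samples of the study: 3 samples labelled T1R3KO and 3 labelled WT, each on its own Illumina bead array. The other 12 samples are cortex and hypothalamus of the same 2 genotypes and are used only where the text names those regions. Both genotypes were male, 4 to 5 months old and labelled C57BL/6J, fed standard chow and kept under a light and dark cycle. Per the design text, the knockout mice were a gifted line bred with wild-type C57BL/6J mice over at least 4 generations. The strain in which the deletion was made is not named there. The design text counts 18 animals in all, 3 per group, so each array stands for 1 animal. A probe entered the tests when it was detected above the negative control beads, at a detection p under 0.05, on 3 or more of the 6 hippocampus arrays. That rule kept 14239 of the 25697 probes, and 13418 of the kept probes carried the symbol of 1 of 9785 genes.

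T1R3 is the subunit shared by the sweet receptor, where it pairs with T1R2, and the umami receptor, where it pairs with T1R1. In taste cells these receptors act through a G protein, a phospholipase C and the cation channel TRPM5. The receptor also occurs outside the tongue, in gut and pancreas, and its transcripts have been described in brain. The hippocampus, made of the dentate gyrus and the areas CA1 to CA3, serves the formation of memories and is rich in excitatory neurons.

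Mean signal was 1082, 959 and 788 intensity units on the knockout arrays and 1066, 994 and 826 on the wild-type arrays. Between 53.9% and 55.2% of the probes were detected on a knockout array, and between 54.6% and 55.6% on a wild-type array. Levels below are normalized log2 signals, and fold changes are log2 differences, knockout minus wild type, ± SE. Over the tested probes, the median SD among 3 arrays was 0.12 log2 units in knockout and 0.14 in wild type. Markers of the labelled tissue were present. Fibcd1, a marker of CA1, stood at 12.73 ± 0.02 in knockout and 12.74 ± 0.058 in wild type (SD, n = 3 each), and Prox1, the transcription factor of dentate granule cells, at 9.86 ± 0.15 in knockout and 9.82 ± 0.34 in wild type. Tas1r3 was not detected on any of the 6 arrays, with signals of 123.1, 118.3 and 115 intensity units in knockout and 116.9, 132.6 and 124.2 in wild type. The arrays therefore hold no check of the genotype labels, and whether the probe lies inside the deletion is not known here.

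Wild-type array 1 stood apart. Ttr, the thyroid hormone carrier that choroid plexus epithelium secretes in bulk, was at 14.85, 15.03 and 15.10 on the knockout arrays, against 11.32, 14.91 and 15.14 on the wild-type arrays. The other choroid plexus markers behaved like it: each of the 23 measured had its lowest value of the 6 arrays on wild-type array 1. Kl, the co-receptor klotho, was at 11.88, 12.12 and 11.97 in knockout and 9.17, 12.55 and 12.33 in wild type. The water channel Aqp1 was at 10.38, 10.72 and 10.39 in knockout and 5.14, 11.59 and 11.44 in wild type. The mean of the 23 markers, counted from the wild-type mean, was 0.48, 0.69 and 0.51 on the knockout arrays, against -2.21, 1.08 and 1.13 on the wild-type arrays. In whole tissue, fewer cells of a type and less RNA per cell cannot be told apart.

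**Figure D1:**
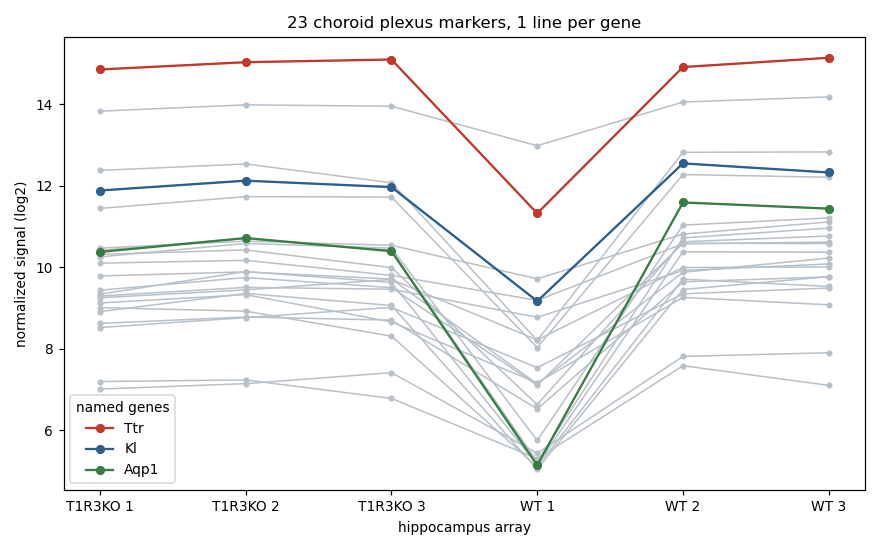
Normalized signal (log2) of the 23 measured choroid plexus markers on each hippocampus array, knockout arrays on the left and wild-type arrays on the right, 1 line per gene. Every line dips on wild-type array 1, where Ttr is at 11.32, and the 3 knockout arrays lie near each other.

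With all 6 arrays, none of these 23 markers passed the test, and none had an unadjusted p under 0.05. Their median fold change was 0.63, and 20 of them lay above wild type. Without wild-type array 1 the picture turned. That array stood out by these same markers, and leaving it out raises the wild-type mean of each. The values that follow are therefore no independent test of a fall. All 23 then lay below wild type, with a median of -0.53, and 6 passed the threshold as lower. These were Aqp1 (-1.02 ± 0.16, adjusted p = 0.00331 in limma, as for all adjusted p-values here), the folate receptor Folr1 (-0.75 ± 0.14, adjusted p = 0.0123), Steap1 (-0.87 ± 0.16, adjusted p = 0.0123), the cation channel Trpv4 (-0.67 ± 0.14, adjusted p = 0.0235), Cdr2 (-0.57 ± 0.13, adjusted p = 0.0418) and Lbp, for a lipopolysaccharide-binding protein (adjusted p = 0.0454). Lbp was at 8.62, 8.78 and 8.70 in knockout and, on the remaining wild-type arrays, at 9.64 and 9.76. How much choroid plexus each dissection held was not measured apart from these markers, and its part in the levels was not tested.

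Across all probes, 211 of 14239 (1.48%) passed an adjusted p of 0.05 between the genotypes. Of these, 110 (0.773%) were higher in knockout hippocampus and 101 (0.709%) were lower. The 211 probes included 191 with a symbol, of 181 genes. Of these genes, 122 had 1 tested probe and 59 had more than 1. Among the 59, 5 had all tested probes called, and 50 had 1 called and at least 1 not. The fold changes of the 211 probes ranged in size from 0.30 to 4.61 with a median of 0.76. Of the 211, 55 exceeded 1 while 44 stayed under 0.5. On all 211 probes the 3 knockout arrays and the 3 wild-type arrays did not overlap, which held for 2230 (15.7%) of all tested probes. Most called probes were measurable in both genotypes: 161 were detected on all 6 arrays, 11 on no knockout array and 20 on no wild-type array. A probe undetected throughout 1 genotype entered the tests only because all 3 arrays of the other genotype detected it. Its entry was therefore not independent of the difference. Without wild-type array 1, 180 probes were called, 134 of them among the 211. The count was smallest without wild-type array 2 (131) and without knockout array 1 (137), and 99 of the 211 stayed called whichever single array was left out.

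The deepest fall was that of Fcer1g, the signalling gamma chain shared by several Fc receptors. Its level was 4.90, 4.97 and 5.49 on the knockout arrays, against 9.50, 9.82 and 9.87 on the wild-type arrays. The wild-type arrays all detected it and no knockout array did, so the ratio is a bound: at least 13.2-fold lower in knockout (-4.61 ± 0.14, adjusted p = 6.51e-12). Gramd4, a membrane protein linked to cell death, was at 5.06, 4.89 and 5.19 in knockout and 9.13, 9.11 and 8.82 in wild type, at least 8.02-fold lower (-3.97 ± 0.15, adjusted p = 1.18e-10). It too was undetected on every knockout array. B3galt6, which adds a galactose to the linker of proteoglycan sugar chains, was detected in both genotypes at 6.99, 7.28 and 7.40 in knockout and 9.95, 9.95 and 9.47 in wild type (-2.57 ± 0.15, adjusted p = 6.86e-08). Clstn1, the neuronal cargo adaptor calsyntenin 1, had 9.47, 9.32 and 9.46 in knockout and 10.92, 10.96 and 10.99 in wild type (-1.54 ± 0.12, adjusted p = 1.9e-06). Uap1, an enzyme of UDP-sugar synthesis, had 9.46, 9.44 and 9.51 in knockout and 10.98, 10.84 and 10.82 in wild type (-1.41 ± 0.15, adjusted p = 4.22e-05). For these 3 genes the gap between the genotypes was several times the range within either.

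Other falls were smaller or concerned dim probes. Zbtb8os, a cofactor of the tRNA ligase, fell (-2.02 ± 0.24, adjusted p = 0.000157), with 1 of 3 knockout arrays detecting it. Per3, a period protein of the circadian clock, was at 5.21, 5.78 and 5.82 in knockout and 7.15, 6.79 and 6.97 in wild type, at least 1.94-fold lower (-1.37 ± 0.20, adjusted p = 0.001). Pex19, the chaperone of peroxisomal membrane proteins, fell on both of its probes (-1.23 ± 0.14 and -0.38 ± 0.07, the second not called without knockout array 2 or 3 or wild-type array 2, up to 0.0687). The ribosomal protein gene Rps15a was at 10.22, 10.21 and 10.01 in knockout and 11.36, 11.17 and 11.32 in wild type (-1.14 ± 0.099, adjusted p = 6.05e-06). Rplp0, Eya3 and Pgm5 were undetected in knockout and at least 1.23-fold, 1.93-fold and 1.2-fold lower. Rplp0 and Eya3 each had a further probe that did not pass (0.23 and 0.15), so their falls rest on 1 of 2 probes. Genes of ribosomal proteins have many near-identical copies in the genome, and a probe may bind several of them. Haus2, a subunit of the spindle complex augmin, also fell (-1.05 ± 0.18, adjusted p = 0.00508). The RNA-binding protein gene Hnrnpa3 (-1.17 ± 0.24, adjusted p = 0.0184) lost its call without knockout array 1 or 3 or wild-type array 1 or 2 (adjusted p up to 0.0951). Cdkn2b, an inhibitor of the cell cycle (-1.03 ± 0.22, adjusted p = 0.0269), lost it without any single array but knockout array 1 (up to 0.139).

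Among the rises, Fn3krp, a kinase that removes sugar adducts from proteins, led with 9.08, 9.29 and 9.36 in knockout and 6.83, 6.62 and 5.95 in wild type (2.77 ± 0.17, adjusted p = 7.65e-08). Stbd1, a protein that tethers glycogen to membranes, was at 9.48, 9.40 and 8.78 in knockout and 7.24, 7.33 and 7.27 in wild type (1.94 ± 0.20, adjusted p = 4.16e-05). Tmem87a, a Golgi membrane protein, was at 9.56, 9.64 and 9.70 in knockout and 7.89, 7.59 and 7.50 in wild type (1.97 ± 0.14, adjusted p = 7.65e-07). On these probes no knockout array came near the wild-type range. The lipid flippase gene Atp10d (1.59 ± 0.22, adjusted p = 0.000715), the exchange factor gene Fgd2 (1.61 ± 0.23, adjusted p = 0.000776) and Tpmt, which methylates thiopurines (1.34 ± 0.18, adjusted p = 0.000452), also rose.

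Several rises came from probes that no wild-type array detected. Such probes entered the tests only because all 3 knockout arrays detected them, so their adjusted p-values are no independent support. Ttc34 was at 8.05, 8.25 and 7.93 in knockout and 5.65, 5.48 and 5.66 in wild type, at least 4.34-fold higher. Masp2, a protease of the lectin pathway of complement, was at 7.62, 7.40 and 7.66 in knockout and 5.08, 5.42 and 5.30 in wild type, at least 3.04-fold higher. Fpr2, a formyl peptide receptor gene, was at least 1.6-fold higher, and Bricd5 at least 3.57-fold. Ccr6, the receptor for the chemokine CCL20, was called on both of its probes (the weaker one not without any 1 knockout array or wild-type array 1 or 2, up to 0.208), and on the one of smaller p it was at least 2.44-fold higher. Fv1, a restriction gene against murine leukaemia virus, was at least 2.17-fold higher and was called on all 3 of its probes, 1 of them not without knockout array 1 or 3 or wild-type array 3 (up to 0.087). Golm2, a Golgi protein gene, was at least 2.05-fold higher on 1 probe and called on a second, while the third did not pass (0.19 ± 0.13). The MHC class I gene H2-Bl was at least 1.64-fold higher, and its probe may bind related class I genes. Their adjusted p-values lay between 2.37e-09 for Masp2 and 0.00801 for Ccr6. Sytl1 (1.47 ± 0.31, adjusted p = 0.0252, at least 1.6-fold higher) lost its call whichever single array was left out (adjusted p 0.0521 to 0.101).

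**Figure D2:**
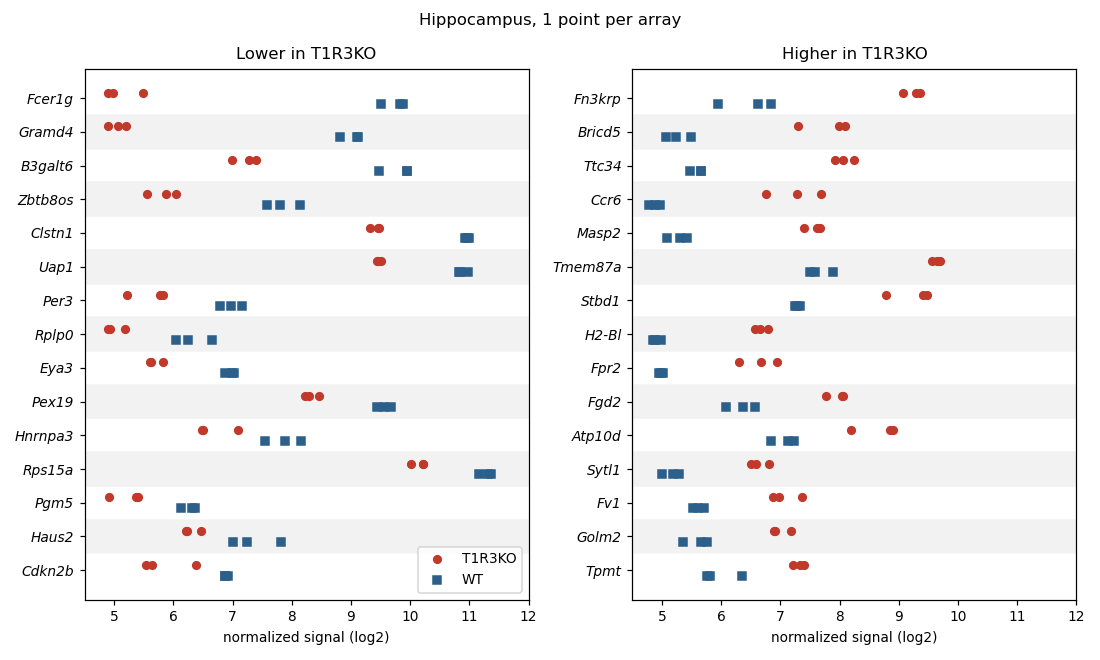
Normalized signal (log2) on the 3 knockout arrays (red circles) and the 3 wild-type arrays (blue squares) for the 15 largest falls (left) and the 15 largest rises (right) among genes past the threshold. The 2 genotypes do not overlap in any row, which was a condition of the choice and held for all 211 called probes. Values near 5 are at the background, as for Fcer1g in knockout.

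The called genes of highest signal differed by less than the leading genes. Hmgn2, a nucleosome-binding protein gene, was at 13.72, 13.72 and 13.80 in knockout and 13.26, 13.31 and 13.28 in wild type (0.47 ± 0.07, adjusted p = 0.00158). Extl2, a glycosyltransferase gene, was at 11.91, 11.92 and 11.85 in knockout and 12.31, 12.36 and 12.28 in wild type (-0.42 ± 0.073, adjusted p = 0.00587). Sdhc, a membrane subunit of succinate dehydrogenase, rose to 12.75, 12.72 and 12.87 in knockout, against 11.91, 12.31 and 12.35 in wild type (0.59 ± 0.11, adjusted p = 0.0086). Nudc (0.33 ± 0.066, adjusted p = 0.0151), a gene for a dynein-associated chaperone, was called on 1 of its 2 tested probes. It lost its call without knockout array 2 or wild-type array 2 (adjusted p up to 0.0909). The splicing factor gene Wbp11, at 12.69 ± 0.28 in knockout and 12.12 ± 0.12 in wild type (0.56 ± 0.13, adjusted p = 0.04), lost it without any single array but knockout array 3 (up to 0.179). Mfn2, for mitochondrial fusion (-0.35 ± 0.083, adjusted p = 0.0478), and the amino acid transporter gene Slc7a5 (-0.33 ± 0.079, adjusted p = 0.049) lost it without any 1 of the 6 arrays (0.0538 to 0.18 and 0.061 to 0.208).

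The called genes were unevenly spread over the genome. With 1 probe per gene, the one of highest level, 153 of 9785 genes (1.56%) were called, 85 (0.869%) higher and 68 (0.695%) lower. Chromosome 4, which carries Tas1r3, held 46 called of 603 measured genes (7.63%), that is 30.1% of the called and 6.16% of the measured genes. Of the 46, 21 rose and 25 fell. Chromosome 17 held 19 called of 473 (4.02%), and 17 of these rose. Chromosome 1 held 16 of 499 (3.21%), 8 in each direction. No gene of the 482 on chromosome 10 or of the 306 on chromosome 16 was called. The shares are descriptions, and no test was made of them.

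**Figure D3:**
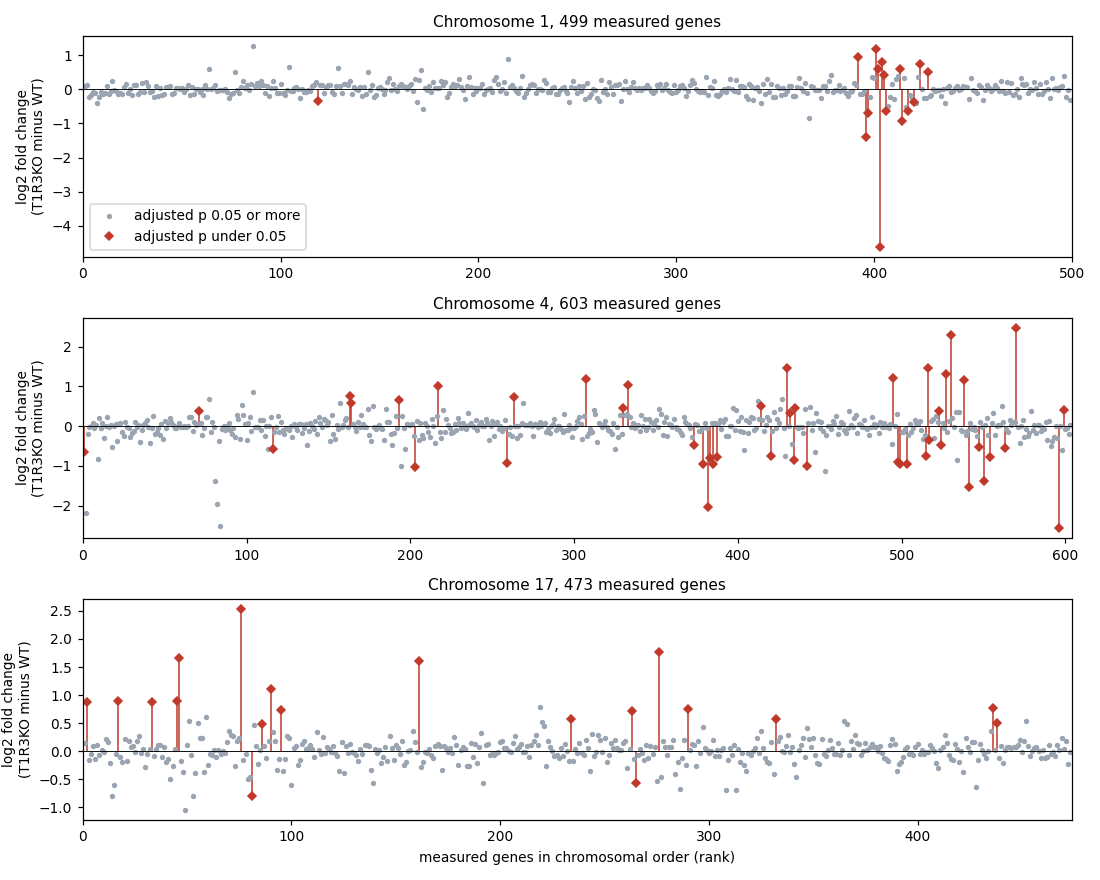
Log2 fold change, knockout minus wild type, of every measured gene on chromosomes 1, 4 and 17 in chromosomal order (rank of the gene). Red diamonds mark genes past the threshold: 14 of the 16 on chromosome 1 stand in 1 stretch, whereas the 46 on chromosome 4 reach from end to end with most in the second part, and 17 of the 19 on chromosome 17 point up.

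Windows of 10 consecutive measured genes with 4 or more called joined into 6 stretches, 4 of them on chromosome 4. The densest in count was on chromosome 1, from Rgs5 to Slamf9, with 14 of 32 genes called, 7 up and 7 down. Fcer1g lies there, as does Fcgr3, the low-affinity IgG receptor that uses the Fcer1g chain for signalling. Fcgr3 was at 9.25, 8.98 and 9.11 in knockout and 7.83, 7.83 and 8.16 in wild type (1.17 ± 0.15, adjusted p = 0.000261), so the receptor rose where its signalling chain fell. Rgs5, a pericyte regulator of G protein signalling (0.95 ± 0.16, adjusted p = 0.00508), and Adamts4, a protease of brain matrix (0.80 ± 0.14, adjusted p = 0.00475), also rose. Uap1, Vangl2, a planar polarity gene (-0.64 ± 0.095, adjusted p = 0.00139), and Pex19 fell.

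Of the remaining called genes of that stretch, 6 depended on single arrays, while Sdhc kept its call whichever array was left out. Sdhc lost it when the fit held the hippocampus arrays alone (adjusted p up to 0.155). B4galt3 (0.43 ± 0.079), F11r (-0.94 ± 0.18), Uhmk1 (-0.68 ± 0.16), Ppox (-0.63 ± 0.14), Usf1 (0.60 ± 0.13) and Slamf9 (0.76 ± 0.15) each lost the call when single arrays were left out. Their highest adjusted p was 0.0598 for B4galt3 (without knockout array 1 or wild-type array 2), 0.0675 for F11r (knockout 1 or 2, wild-type 2 or 3) and 0.195 for Uhmk1 (all but wild-type 3). It was 0.177 for Ppox (all but wild-type 2), 0.177 for Usf1 (all but wild-type 3) and 0.0645 for Slamf9 (all but wild-type 1). A second Usf1 probe gave -0.85 ± 0.32 and a second B4galt3 probe -0.15 ± 0.16, and neither passed.

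Fcer1g and Fcgr3 encode parts of 1 receptor, lie in the same stretch and moved in opposite directions, so the sequences around their start sites are shown. Each window runs from 250 bases before to 50 bases after the start of the gene, from RefSeq on GRCm38.p6, 5′ to 3′ on the minus strand. Capitals mark GGAA or, on the other strand, TTCC, the core of sites for ETS factors such as PU.1, which governs Fc receptor genes in myeloid cells. The Fcer1g window is chr1:171234300-171234599 and the Fcgr3 window, the first of 2 listed for the gene, is chr1:171059354-171059653.
Fcer1g: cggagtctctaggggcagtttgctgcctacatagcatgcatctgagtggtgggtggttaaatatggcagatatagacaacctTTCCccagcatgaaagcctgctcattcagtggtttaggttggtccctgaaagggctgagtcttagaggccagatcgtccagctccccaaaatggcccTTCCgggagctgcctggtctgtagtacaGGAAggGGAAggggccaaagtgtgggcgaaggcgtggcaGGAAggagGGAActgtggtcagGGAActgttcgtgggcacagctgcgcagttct
Fcgr3: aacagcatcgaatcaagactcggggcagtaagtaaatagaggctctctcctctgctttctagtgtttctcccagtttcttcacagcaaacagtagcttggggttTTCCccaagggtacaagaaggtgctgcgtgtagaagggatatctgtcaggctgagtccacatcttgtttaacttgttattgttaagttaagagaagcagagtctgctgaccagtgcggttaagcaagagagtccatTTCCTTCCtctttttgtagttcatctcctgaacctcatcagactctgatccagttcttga
The motif occurs 7 times in the Fcer1g window and 3 times in the Fcgr3 window. It occurs in 96% of all 32851 promoter windows, with a median of 3 matches, so its presence sets neither gene apart. The longer GAGGAAG, searched on both strands and overlapping the first motif, is found in 13.6% of all windows, once in that of Fcgr3 and not in that of Fcer1g. The arrays do not read these sequences, and whether they differ between the genotypes was not tested.

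On chromosome 4, all 5 called genes of the stretch from Trim62 to Hdac1 (9 measured) fell. They were Trim62, a ubiquitin ligase gene (-0.94 ± 0.13, adjusted p = 0.000924), Zbtb8os, Zbtb8a (-0.79 ± 0.15), Bsdc1 (-0.95 ± 0.11, adjusted p = 0.000104) and the histone deacetylase gene Hdac1 (-0.78 ± 0.11, adjusted p = 0.000872). Hdac1 was at 8.23, 8.27 and 8.40 in knockout and 9.03, 9.15 and 9.08 in wild type. Zbtb8a lost its call without knockout array 3 or wild-type array 1 (adjusted p up to 0.0669). From Sytl1 to Hmgn2, 4 of 6 genes were called: Sytl1, Nudc and Hmgn2 rose and Gpn2, a small GTPase gene, fell (-0.84 ± 0.13, adjusted p = 0.00176). From Padi2 to Arhgef19, 4 of 9 were called. Padi2, which converts arginine to citrulline in proteins and is known from oligodendrocytes, was at least 1.8-fold higher (1.22 ± 0.20, adjusted p = 0.00337), undetected on all wild-type arrays. The microfibril gene Mfap2 (-0.91 ± 0.16, adjusted p = 0.00695), the ciliary rootlet gene Crocc (-0.96 ± 0.13, adjusted p = 0.000604) and Arhgef19 (-0.94 ± 0.18) fell, the last with its call lost without knockout array 2 or wild-type array 2 (up to 0.0576). Mfap2 was called on 1 of its 2 tested probes.

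The stretch from Miip to Masp2 held 7 called of 16 genes, with Fv1, Fbxo6, Angptl7 and Masp2 higher and Miip, Mfn2 and Fbxo44 lower. Fbxo6 and Fbxo44 encode F-box proteins, the target-binding subunits of ubiquitin ligases. Fbxo44 was at 10.21, 10.22 and 10.24 in knockout and 10.63, 10.63 and 10.83 in wild type (-0.47 ± 0.088, adjusted p = 0.00972). Fbxo6 went the other way, at 11.78, 11.89 and 11.73 in knockout and 11.46, 11.40 and 11.42 in wild type (0.38 ± 0.076, adjusted p = 0.016), and lost its call without knockout array 1 or 2 or wild-type array 2 or 3 (up to 0.0928). Angptl7, a secreted angiopoietin-like protein gene, was at least 1.29-fold higher (1.31 ± 0.17, adjusted p = 0.000412). Miip fell (-0.74 ± 0.099, adjusted p = 0.000528).

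Tas1r3 lies near the far end of chromosome 4. Of a list of 128 genes of that end, 79 were measured, 5 rose and 8 fell (16.5% called, against 1.56% of all genes), and the median fold change was -0.032, against 0.014 over all genes. The members that moved include B3galt6, Ttc34, Clstn1, Per3, Masp2 and Mfn2. Beyond those described, Rbp7, a retinol carrier gene, rose (1.16 ± 0.23, adjusted p = 0.0149), and Klhl21 (-0.77 ± 0.11, adjusted p = 0.000776) and the chromatin remodeller gene Chd5 (-0.56 ± 0.11, adjusted p = 0.0122) fell. Rbp7 lost its call without knockout array 1 or 2 (up to 0.0871) and Chd5 without knockout array 1 or wild-type array 1 (up to 0.0706). Outside chromosome 4, a stretch on chromosome 2 from Vps39 to Haus2 had 4 of 8 genes called: Tmem87a and Vps39, a tethering protein of late endosomes (0.61 ± 0.11, adjusted p = 0.00508, both probes called, the other not without knockout array 1 or 3 or wild-type array 2, up to 0.0749), rose, and Lrrc57 (-0.91 ± 0.082, adjusted p = 1.03e-05) and Haus2 fell.

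The genes that define hippocampal neurons were close to level. None of the 9 measured CA1 markers, the 15 markers of CA2 and CA3, the 11 dentate granule cell markers or the 14 genes of young neurons was called, with median fold changes of -0.0095, 0.023, -0.0058 and -0.060. In each of the 4 lists 1 member had an unadjusted p under 0.05 in limma, and over all 9785 genes 10.3% did. The members of smallest p were Lefty1 in CA1 (0.32 ± 0.14, adjusted p = 0.409), Bok in CA2 and CA3 (-0.38 ± 0.10, adjusted p = 0.103), Rfx3 in the dentate gyrus (0.34 ± 0.12, adjusted p = 0.258) and Igfbpl1 among the young neuron genes (-0.57 ± 0.20, adjusted p = 0.258). Bok, a BCL2 family gene of CA3, was at 11.91, 12.01 and 11.90 in knockout and 12.24, 12.22 and 12.51 in wild type, with no overlap. A fold change of 0.5 can pass here only where the spread is small, so changes of that size in single markers may have been missed.

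Glutamate receptors and postsynaptic scaffold proteins carry fast excitation. Of 32 measured, none was called, 1 had an unadjusted p under 0.05, and the median was 0.018. Gria2, the AMPA receptor subunit that sets calcium permeability, was at 14.21, 14.16 and 14.13 in knockout and 14.13, 14.23 and 14.08 in wild type, and Gria1 at 12.83, 12.75 and 12.92 in knockout and 12.81, 12.99 and 13.06 in wild type. Of 22 GABA receptor and interneuron genes none was called and 1 had an unadjusted p under 0.05 (median -0.0044), with Gad1, which makes GABA, at 13.77, 13.91 and 13.70 in knockout and 13.56, 13.69 and 13.31 in wild type (adjusted p = 0.403). None of 41 potassium channel genes (3 with an unadjusted p under 0.05, median -0.042) or 27 calcium, sodium and HCN channel genes (1, median 0.039) was called. For these the smallest p-values belonged to Kcnip4 (-0.31, adjusted p = 0.317) and Cacng3 (-0.29, adjusted p = 0.341).

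Of 41 presynaptic genes, 2 fell and none rose (median -0.038), and 4 had an unadjusted p under 0.05 in limma. Over all 9785 genes, 1.56% were called and 10.3% had an unadjusted p under 0.05. Rab3b, a small GTPase of synaptic vesicles, was at 8.92, 8.91 and 8.95 in knockout and 9.99, 9.73 and 9.84 in wild type (-0.93 ± 0.14, adjusted p = 0.00161). Sv2a, the vesicle protein that binds levetiracetam, was at 13.64, 13.47 and 13.55 in knockout and 13.96, 13.97 and 13.97 in wild type (-0.42 ± 0.078, adjusted p = 0.0103). Its second probe gave -0.27 ± 0.08 and did not pass (adjusted p = 0.163), and without knockout array 2 the first lost its call (0.0626). Among 21 acetylcholine and monoamine receptor genes (3 with an unadjusted p under 0.05, median 0.12), Chrnb2, the nicotinic beta 2 subunit, rose (0.34 ± 0.069, adjusted p = 0.0175). It lost its call without knockout array 1 or 3 or wild-type array 1 or 2 (up to 0.0849), and its second probe gave 0.11 ± 0.10.

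Genes that respond to activity, stress and learning gave no call. None of 26 immediate early genes passed, and 2 had an unadjusted p under 0.05 (median 0.027). Egr1 was at 13.56, 13.74 and 13.51 in knockout and 13.70, 13.96 and 13.67 in wild type, and Nptx2, a secreted organiser of AMPA receptors, had the smallest p (0.42 ± 0.13, adjusted p = 0.179). None of 38 plasticity kinase, neurotrophin and CREB pathway genes was called, and 4 had an unadjusted p under 0.05 (median -0.012). The one of smallest p was Prkcz (-0.26 ± 0.088, adjusted p = 0.247). The 24 glucocorticoid-responsive genes (4 with an unadjusted p under 0.05, median 0.0066) and the 20 neuropeptide and granin genes (3, median -0.0028) also held no call. Their members of smallest p were Bcl6 (0.32, adjusted p = 0.179) and Chga (0.32, adjusted p = 0.128).

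**Figure D4:**
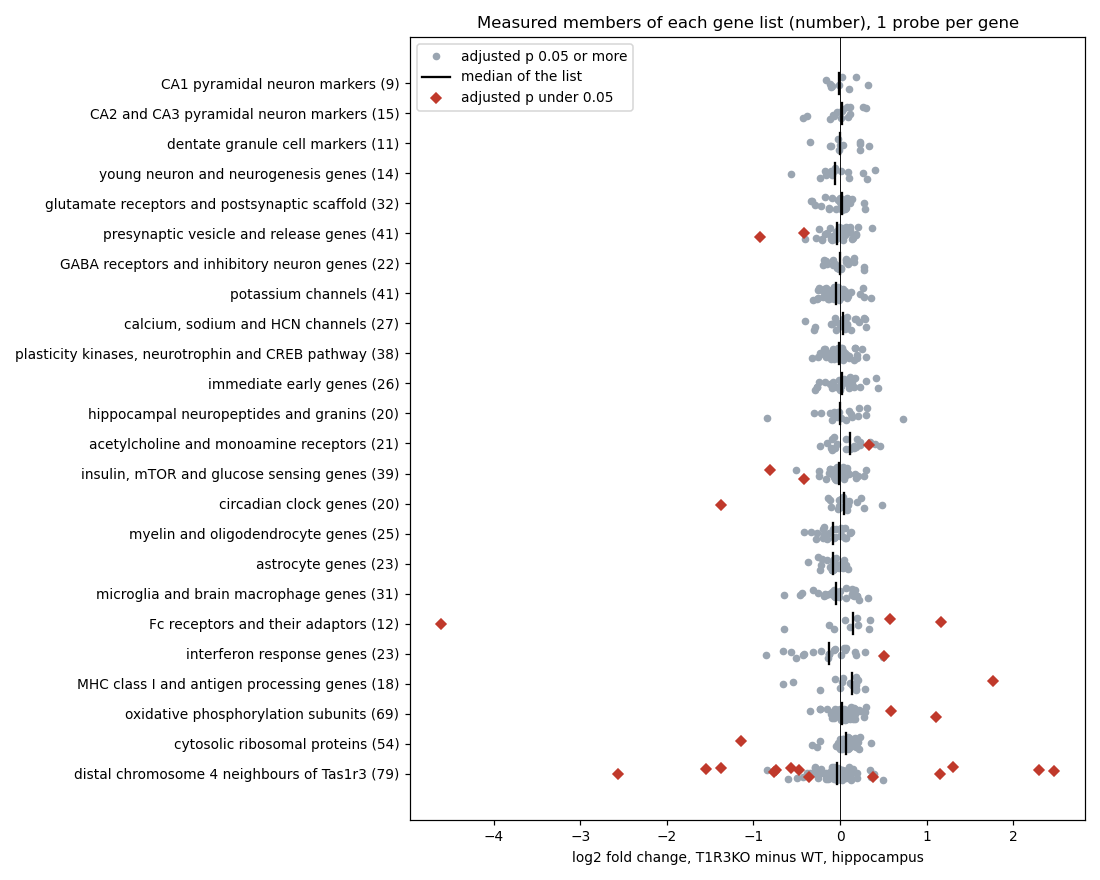
Log2 fold change, knockout minus wild type, of each measured member of 24 of the gene lists (number of members in brackets), 1 probe per gene. Red diamonds passed an adjusted p of 0.05 and black bars are list medians, which lie between -0.13 and 0.15. The neuronal lists at the top hold few diamonds, and the distal chromosome 4 list holds 13.

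T1R3 senses sugars and amino acids, so genes of nutrient sensing and energy use were read next. Of 39 insulin, mTOR and glucose sensing genes, 2 fell and none rose (median -0.0099), and 6 had an unadjusted p under 0.05 in limma. Over all 9785 genes, 1.56% were called and 10.3% had an unadjusted p under 0.05. Tsc2, a brake on mTOR complex 1, was at 11.94, 11.56 and 11.45 in knockout and 12.49, 12.28 and 12.59 in wild type (-0.80 ± 0.14, adjusted p = 0.00627). Its second probe gave -0.26 ± 0.08 and did not pass (adjusted p = 0.151). Hexokinase 2 (Hk2; -0.42 ± 0.099, adjusted p = 0.0485) lost its call without any single array but knockout array 1 (up to 0.213). Of 69 subunits of oxidative phosphorylation, 2 rose and none fell (10 with an unadjusted p under 0.05, median 0.025). Ndufb10, of complex I, was at 11.44, 11.81 and 11.90 in knockout and 10.36, 10.55 and 10.91 in wild type (1.11 ± 0.19, adjusted p = 0.00508), and the other was Sdhc. Among 54 cytosolic ribosomal protein genes only Rps15a passed with 1 probe per gene (7 with an unadjusted p under 0.05, median 0.064). On probes of lower level, Rplp0, described above, and Rpl29 (-1.004 ± 0.13, adjusted p = 0.000265) also fell, while the brighter probe of Rpl29 gave -0.27 ± 0.12 and did not pass. Of 20 clock genes only Per3 passed on the same basis (3 with an unadjusted p under 0.05, median 0.040).

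Taste signalling genes were mostly beyond the reach of the arrays. Tas1r1 and Tas1r2, the partners of T1R3, were detected on 0 of 6 arrays, and 4 of the 18 taste genes on the array were measured. None was called, and Gnb1 alone had an unadjusted p under 0.05. Gnb1, a widely used G protein beta subunit that also lies on chromosome 4, was at 11.76, 12.02 and 11.96 in knockout and 11.60, 11.52 and 11.46 in wild type (0.39 ± 0.15, adjusted p = 0.344).

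The lists of glial genes held no call either, with unadjusted p-values under 0.05 for 3 myelin, 1 astrocyte and 3 microglia genes. Fcer1g and Fcgr3, counted with the Fc receptors, and Padi2 were called but are not members of these lists. Of 25 myelin and oligodendrocyte genes 17 lay below wild type (median -0.082), and of 23 astrocyte genes 18 did (median -0.076). Over all 9785 genes, 46.1% lay below 0 and the median was 0.014. Those of smallest p were Mog (-0.51, adjusted p = 0.251, on its dimmer probe, and -0.41, adjusted p = 0.345, on the one counted in the list) and Id4 (-0.37, adjusted p = 0.257). Of 31 microglia and macrophage genes none was called (median -0.046). Trem2 was at 8.62, 8.27 and 8.89 in knockout and 9.10, 8.86 and 9.23 in wild type (-0.47 ± 0.14, adjusted p = 0.18). Tyrobp, an adaptor of the same kind as Fcer1g and its companion in microglia, was at 8.28, 8.44 and 8.23 in knockout and 8.05, 7.99 and 8.33 in wild type (0.19 ± 0.12, adjusted p = 0.661).

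Of 12 Fc receptor and adaptor genes (6 with an unadjusted p under 0.05 in limma, median 0.15), Fcer1g fell and 2 rose: Fcgr3 and the low-affinity IgE receptor gene Fcer2a. Over all genes 10.3% had an unadjusted p under 0.05. Fcer2a was at 6.87, 6.80 and 7.03 in knockout and 6.43, 6.25 and 6.30 in wild type (0.57 ± 0.12, adjusted p = 0.0255) and lost its call without knockout array 1 or 3 or wild-type array 2 or 3 (up to 0.124). Fcgr2b, the inhibitory receptor, was at 6.68, 6.89 and 6.75 in knockout and 6.59, 6.31 and 6.41 in wild type (adjusted p = 0.404). Of 23 interferon response genes (8 with an unadjusted p under 0.05, median -0.13) 1 rose. This was Eif2ak2, the double-stranded RNA sensor PKR (0.50 ± 0.097, adjusted p = 0.0119), whose call was lost without knockout array 1 or wild-type array 2 (up to 0.072). Without wild-type array 1, Lgals3bp was also called, at -1.26 ± 0.13 (adjusted p = 8.45e-05). With all arrays it stood at 8.73, 8.94 and 9.05 in knockout and 8.95, 10.13 and 10.21 in wild type (-0.85 ± 0.23, adjusted p = 0.102). Of 18 MHC class I and antigen processing genes, 4 had an unadjusted p under 0.05 and H2-Bl alone was called (median 0.14, and 0.036 without wild-type array 1). H2-D1, a classical class I gene, was at 6.17, 6.02 and 5.85 in knockout and 5.81, 6.20 and 5.96 in wild type.

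Markers of other tissue that a dissection could include were read in the same way. Of 24 cortical layer markers 1 rose and 1 fell (4 with an unadjusted p under 0.05 in limma, median -0.029). Over all genes 10.3% had an unadjusted p under 0.05. Ntsr1, a neurotensin receptor of deep cortical layers, was at 7.27, 7.16 and 7.18 in knockout and 8.08, 7.67 and 7.59 in wild type (-0.58 ± 0.13, adjusted p = 0.0381). Its call was lost without any single array but wild-type array 3 (up to 0.143). Trib2 (0.42 ± 0.095, adjusted p = 0.0378) lost its call without any single array but knockout array 2 (up to 0.148). Among 14 thalamic and habenular markers (2 with an unadjusted p under 0.05) Tnnt1 rose (1.00 ± 0.19, adjusted p = 0.0109). Its call was lost without knockout array 2 or wild-type array 2 (up to 0.0637). Of 20 striatal and 8 hypothalamic markers none was called or had an unadjusted p under 0.05, and the 8 hypothalamic ones all lay above wild type (median 0.14). Without wild-type array 1, 6 of the 8 did (median 0.097). Of 25 endothelial and pericyte genes (5 with an unadjusted p under 0.05) Rgs5 alone was called. None of 12 ependymal, 23 meningeal, 3 globin and red cell or 24 heat shock genes passed, and 2, 0, 1 and 2 of them had an unadjusted p under 0.05. Over all 36 lists, 30 of 851 distinct measured genes (3.53%) were called, against 1.56% of all genes. Outside the distal chromosome 4 list 17 of 772 (2.2%) were called, and 23 lists held none.

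The genotype effect was set against that of cortex and hypothalamus, whose arrays come from other animals. On the same probes, 408 (2.87%) were called in cortex and 214 (1.5%) in hypothalamus. Of the 211 called in hippocampus, 100 were called in all 3 regions, 30 in cortex as well but not hypothalamus, 20 in hypothalamus but not cortex, and 61 in neither. The direction was the same in all 3 regions for 193 of the 211 (91.5%), against 38.3% of all tested probes. Fcer1g had fold changes of -4.81 in cortex and -4.32 in hypothalamus, beside -4.61 in hippocampus. Gramd4 had -4.02 in cortex and -4.31 in hypothalamus, and Fn3krp 2.54 in cortex and 3.19 in hypothalamus. The test of the difference itself, hippocampus against the mean of the other 2 regions, called no probe in limma (smallest adjusted p = 0.112), and 692 (4.86%) had an unadjusted p under 0.05. Without wild-type array 1 it called 1, Abca4, a retinoid transporter gene, with a difference of -1.11 ± 0.13 (adjusted p = 0.00681). Abca4 was at 5.91, 5.93 and 6.09 in knockout hippocampus, against 4.84, 6.83 and 7.23 in wild type. Like the choroid plexus markers, it was lowest on the array left out. With all arrays its hippocampus fold change was -0.32 ± 0.38 (adjusted p = 0.869), and its difference had an adjusted p of 0.999.

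**Figure D5:**
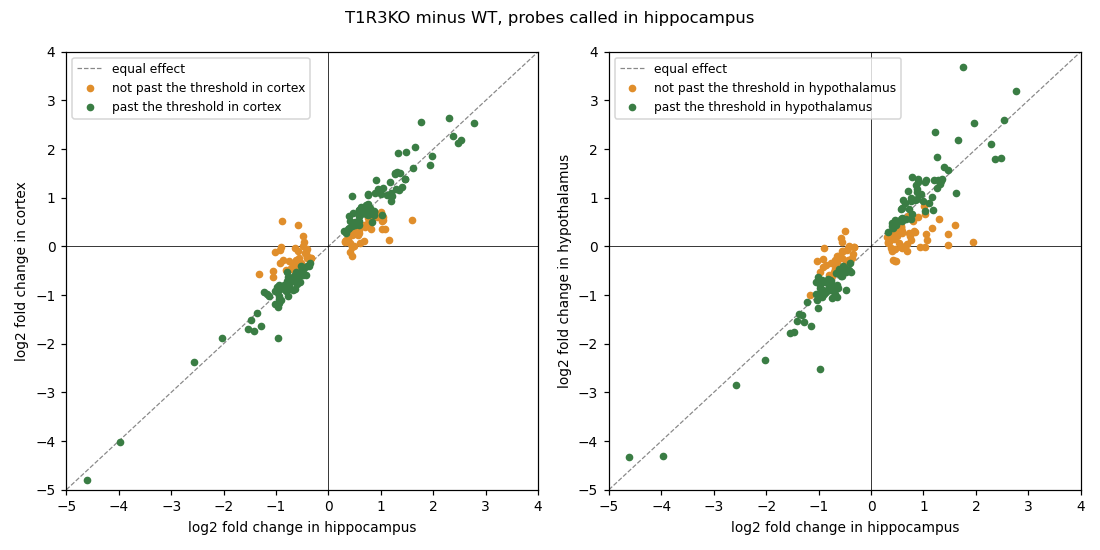
Log2 fold change, knockout minus wild type, of the 211 probes called in hippocampus (horizontal axis) against the same probes in cortex (left) and hypothalamus (right). Green probes also passed the threshold in the other region, and the dashed line marks equal effects. Most lie near the line, and 193 have the same sign in all 3 regions.

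Some genes nevertheless had unequal values, and none of the differences tested passed the adjustment. The fold changes here are log2, knockout minus wild type, and each difference is hippocampus minus the mean of cortex and hypothalamus. Stbd1 rose in hippocampus and was 1.66 in cortex but 0.089 in hypothalamus (difference 1.06 ± 0.25, unadjusted p = 0.000571, adjusted p = 0.568). Atp10d was 0.53 in cortex and 0.45 in hypothalamus, beside 1.59 in hippocampus (difference 1.10 ± 0.27, unadjusted p = 0.000878, adjusted p = 0.568). H2-Bl ran the other way, with 2.56 in cortex and 3.69 in hypothalamus (difference -1.36 ± 0.32, unadjusted p = 0.000605, adjusted p = 0.568). Ntsr1 was 0.45 in cortex and 0.18 in hypothalamus against -0.58 in hippocampus (difference -0.89 ± 0.16, unadjusted p = 4.88e-05, adjusted p = 0.227). The genes above were not picked by a rule set beforehand for this test and are not those of smallest p. Trib2, for example, had a difference of 0.53 ± 0.12 (unadjusted p = 0.000341 in limma, adjusted p = 0.564). The following 4 were also chosen after their values were seen, and no test of the difference is given for them. Mamdc2 was at 6.87, 6.60 and 6.63 in knockout and 5.50, 5.65 and 5.76 in wild-type hippocampus (1.07 ± 0.12, adjusted p = 0.000154), with 0.35 in cortex and 0.14 in hypothalamus. Nefm, the medium neurofilament subunit of axons, was at 12.08, 12.01 and 12.20 in knockout and 11.59, 11.68 and 11.68 in wild type (0.45 ± 0.089, adjusted p = 0.0147), with -0.21 in cortex and -0.051 in hypothalamus, and lost its call without knockout array 1 or 3 or wild-type array 1 (up to 0.0846). Fzd10, a Wnt receptor gene, was at 7.12, 6.68 and 6.48 in knockout and 5.69, 5.64 and 5.86 in wild type (1.03 ± 0.16, adjusted p = 0.00268), with 0.35 in cortex and -0.012 in hypothalamus. The core clock gene Clock, on 1 of its probes, was at 7.19, 6.89 and 6.79 in knockout and 7.53, 7.37 and 7.38 in wild type (-0.47 ± 0.11, adjusted p = 0.0485), with 0.098 in cortex and -0.068 in hypothalamus. That probe lost its call without knockout array 2 or 3 or any 1 wild-type array (up to 0.213). The brighter probe of Clock, the one counted in the clock list, gave -0.011 ± 0.11 and did not pass (adjusted p = 0.991).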

How the data were processed

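Total RNA of dissected, snap-frozen tissue was amplified, labelled with biotin and hybridised to Illumina arrays, per the labels' protocols. The deposited table gives a linear intensity per probe and array, not normalized between arrays, each followed by the deposited detection p-value. A deposited z score per probe served as an alternative. The authors used GenomeStudio 2011.1, per the submitters' processing notes; background treatment, slides and scan dates: not given in the sources used here. All 18 arrays were corrected and normalized with neqc (limma 3.58.1, R 4.3.3, offset 16) and fitted once with 6 group means. Adjustment was by Benjamini-Hochberg, over 14239 probes. The number of arrays limits precision. Where no array of a group detected a probe, "at least" sets the brighter mean against a floor, on each array either the probe's own value or the lowest detected one, whichever is higher.

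Symbols came from the platform annotation (23978 probes with 1, none with several, 1719 with none), updated through RefSeq of GRCm38.p6, which held 13417 of 13418 named tested probes. Genes named by rule were Tas1r3, the 15 largest rises and falls among called genes whose genotypes did not overlap, and 8 called genes of highest level. Up to 4 called members of each of 36 lists (or the 1 of smallest p) and called genes of the chromosomal stretches were also named by rule. Others were added outside the rule, among them Rbp7, Klhl21, Chd5, Rpl29, Tyrobp, Fcgr2b, H2-D1, Prox1, Folr1, Lgals3bp and Abca4. Members, lists and rule were chosen with earlier results of these data known. Where probes of a gene disagree, this is stated. The fit was tested on simulated data. Figures used matplotlib 3.10.9.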

Additional observations from a re-analysis of the deposited data

How the results depend on the processing

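The count of 211 called probes became 94 when the fit held the 6 hippocampus arrays alone (89 of them among the 211) and 97 with neqc also run over those 6 (92). List genes called became 18 under each of these, against 30. Fewer arrays then estimate the spread. Leaving out 1 hippocampus array gave 131 to 181 probes, 21 to 32 list genes, and 0 to 1 probe in the test against the other regions. Other settings gave 144 (probes detected on all 6 arrays) to 267 (array weights) probes. The replicate block gave 158 probes, 135 of them among the 211. Same-numbered arrays correlated at 0.0716, 0.136 and 0.0825 in their deviations, each the highest for its array, a hint of pairing from the data only. Among the genes named by rule, none reversed. Of 73 called, 39 passed under every alternative and 34 lost the call under at least 1. Sdhc, Vangl2, Tsc2, Hmgn2, Extl2, Haus2, Mfap2, Padi2 and Fbxo44 lost it with the 6 hippocampus arrays alone, though in no fit that left out 1 array. Adamts4 lost it only with the replicate block (adjusted p = 0.0683). Rbp7, Klhl21, Chd5, Mamdc2, Nefm, Fzd10, Clock and Rpl29 are not in these counts.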

Other observations

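Genes with large differences that did not pass the test were read after their values were seen. With 1 probe per gene, 31 genes differed by more than 1 on the log2 scale without a call, and 21 of them were lower in knockout. In 8 the SD of the wild-type arrays exceeded 1, with wild-type array 1 lowest in each, and 6 of these 8 belong to the choroid plexus list. In 9 others the SD of the knockout arrays exceeded 1 while the wild-type arrays lay closer together. Ccl21a, a chemokine of lymphatic tissue, was at 4.95, 8.69 and 5.74 in knockout and 8.62, 9.57 and 8.71 in wild type (-2.50 ± 1.04, adjusted p = 0.392 in limma). Its near-identical copies Ccl21b (5.23, 7.90 and 5.97 in knockout and 8.20, 8.71 and 8.10 in wild type) and Ccl21c had the same high knockout array, and their probes may bind one another's transcripts. Ccl27a, a chemokine gene that also lies on chromosome 4, was at 10.54, 11.95 and 10.97 in knockout and 12.53, 12.62 and 12.49 in wild type.

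Taf6, a subunit of the basal transcription factor TFIID, was at 6.15, 8.38 and 6.62 in knockout and 9.17, 9.21 and 9.19 in wild type (-2.14 ± 0.62, adjusted p = 0.132). The cilium gene Cfap69 was at 8.50, 5.95 and 6.23 in knockout and 8.79, 9.60 and 9.44 in wild type, with knockout array 1 near the wild-type range. The histone gene H2aj was at 4.92, 6.94 and 7.43 in knockout and 8.18, 8.20 and 8.24 in wild type, with knockout array 1 lowest. Mak16, for ribosome assembly, was at 9.87, 9.18 and 6.95 in knockout and 10.17, 9.94 and 9.89 in wild type, and Usp25, for a ubiquitin protease, at 7.47, 7.68 and 5.13 in knockout and 8.45, 8.74 and 8.38 in wild type, with knockout array 3 lowest in both. These genes were picked for their spread in knockout. In hippocampus, cortex and hypothalamus, Taf6 had fold changes of -2.14, -1.85 and -2.18, and Cfap69 had -2.38, -2.33 and -2.86. H2aj had -1.78, -1.89 and -1.41, Mak16 -1.33, -1.21 and -1.53, and Usp25 -1.76, -1.84 and -1.72. None of these values passed the threshold. Over all tested probes the median SD was 0.123 among knockout arrays and 0.137 among wild-type arrays.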
